A study of Mus musculus with 4 samples.

Results

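Rad21 binding across the Igk locus was examined in v-Abl transformed mouse pro-B cells that have or lack 53BP1. Members were all Rad21 peaks that lay fully inside chr6:67400001-70800000 of the mouse build mm9, in any of 4 peak lists. There were 101 and 97 such peaks in the wild type (WT) replicates 1 and 2, and 109 and 104 in the 53BP1 knockout replicates 1 and 2. Where 4 values follow each other below, they stand in this order. Peaks of different lists that touched or overlapped were merged, which left 161 Igk regions of 34743 regions in all. The window of 3.4 Mb was divided into the V array (chr6:67400001-70650000), described in 6 bins of 0.5 Mb and a last one of 0.25 Mb, and the stretch of 0.15 Mb that holds the J segments, the constant segment, the enhancers and the 3′ end of the locus (chr6:70650001-70800000).

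Igk encodes the kappa light chain of antibodies. One of many V segments is joined to a J segment by the RAG nuclease, and V segments lie in either orientation, so that joining deletes or inverts the DNA between them. Cohesin, of which Rad21 is the kleisin subunit, extrudes chromatin loops and stops at bound CTCF, which brings distant segments close to each other. In the stretch between the V and J segments lie Cer and Sis, elements that bind CTCF and limit the use of the V segments nearest to the J segments. Enhancers lie in the intron before the constant segment and beyond it. 53BP1 is a chromatin-bound factor of double-strand break repair.

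All 4 libraries came from cells with the Emu-Bcl2 transgene, which keeps arrested B-lineage cells alive, and without RAG1, so the locus could not be cut. Both genotypes were treated with 3 uM STI-571, an inhibitor of the v-Abl kinase that arrests these lines, for 4 days, and the 2 knockout libraries carried the 53BP1 knockout in addition. Whether each genotype was 1 clone, and whether libraries came from separate cultures, is not stated, so the spread between the 2 libraries of a genotype may be technical. The sample titles and the extraction protocol name Rad21, while a treatment field names a 53BP1 antibody. Peak lists hold no expression, so neither the pro-B identity nor the loss of 53BP1 could be checked. Lists held 21971 to 25145 peaks, and the sequencing depth behind them is unknown. The second knockout list stood apart, with a median fold of 3.67 against 4.06 to 4.15 in the other 3. Fold is the authors' own enrichment of a peak over its background.

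In a gene table of the build GRCm38, used for names only, the locus holds 162 named V segments, 60 of them pseudogenes, then 5 J segments and 1 constant segment, Igkc. The table lists 0 protein-coding genes inside it. No mm9 annotation was used here, so peaks are named by position and are not assigned to a segment, an enhancer or to Cer and Sis.

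Rad21 peaks lay along the whole locus in both genotypes. Their density was 29.7 and 28.5 peaks per Mb in WT replicates 1 and 2, and 32.1 and 30.6 in knockout replicates 1 and 2. The rest of chromosome 6 held 7.65, 8.01, 8.64 and 7.43 peaks per Mb in the same order. The locus was thus 3.82 ± 0.24 times as dense as the rest of its chromosome (mean ± SD, n = 4 libraries, range 3.56 to 4.12). Every library showed this excess, and the two-sided exact sign-flip permutation test over the 4 libraries gave p = 0.13, the lowest it can give. The chromosome on either side was less dense. The 3.4 Mb before the window held 6.76 to 8.53 peaks per Mb and the 3.4 Mb after it 10.0 to 14.1. Density was thus lower outside both borders, and 0 peaks straddled a border. The first region of the window, chr6:67401171-67402312, was called in every library, and the nearest peaks before it lay 73.7 to 154 kb outside the border. On the other side the nearest outside peak lay 30.6 to 30.8 kb beyond the border in all 4 lists, at 70830606 to 70831581, with folds of 5.89, 5.64, 6.11 and 4.45.

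Igk peaks had a median fold above that of other peaks on the chromosome in WT replicate 1 and below it in the remaining lists. Their median fold was 4.22 and 4.04 with 53BP1 and 4.03 and 3.54 without it, against 4.14, 4.07, 4.20 and 3.69 on the rest of chromosome 6. The highest fold in the window was 7.36 and 7.23 with 53BP1, 8.08 in the first and 4.82 in the second knockout library. A −log10 q of 5 or more was reached by 19 and 19 peaks with 53BP1 and by 18 and 17 without it. These were 18.8, 19.6, 16.5 and 16.3% of Igk peaks, against 27.0, 28.3, 26.6 and 14.9% on the rest of chromosome 6. The Igk share was thus the lower in 3 libraries and the higher in knockout replicate 2. Only 8 of 161 regions (4.97%) reached that value in every library, against 6.76% of all regions. Median widths were 436 and 493 bp with 53BP1 and 396 and 654 bp without it. The ratio of these to the median on the rest of chromosome 6 was 0.867, 0.999, 0.811 and 1.21, with no common direction (exact sign-flip permutation p = 0.625). Neighbouring peaks of 1 list lay a median of 25.7 to 27.0 kb apart, against 36.7 to 44.2 kb elsewhere on the chromosome.

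**Figure D1:**
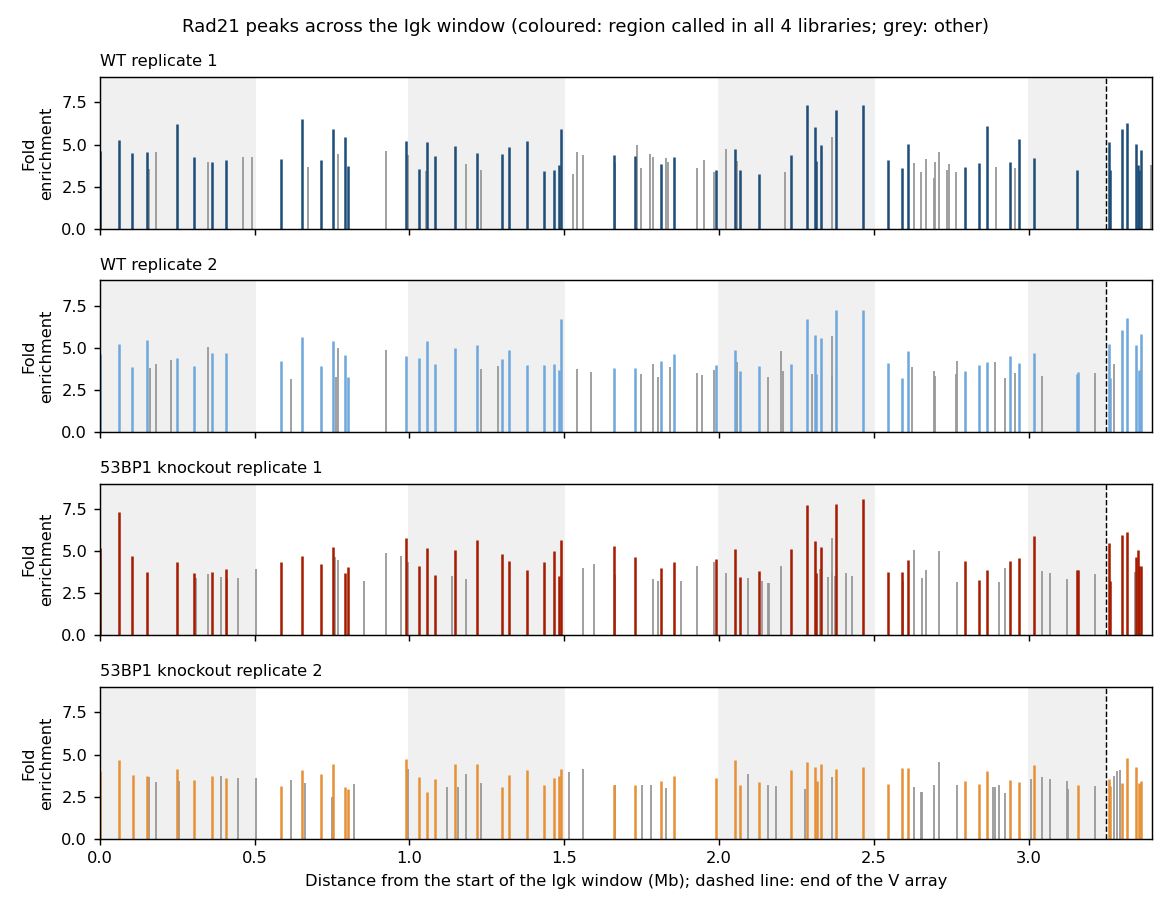
Fold enrichment (vertical axis) of each Rad21 peak against its distance from the start of the Igk window in Mb, with 1 panel per library. Coloured lines are peaks of the 59 regions called in every library, grey lines are other peaks, and shading alternates by bin. Peaks lie in every bin, with up to 97.4 to 176 kb between neighbouring peaks of a list, and folds are lower in the second knockout library, which reached 4.82 at most.

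The libraries shared a core of sites and differed in many weak ones. Every library called 59 of the 161 regions (36.6%), and 58 (36.0%) were found in just 1 list. Over all regions these shares were 41.7% and 30.7%. In the 3.4 Mb before and after the window, 35.7% and 31.7% of regions were called in every library, so the Igk share was not lower than beside it. The other Igk regions were called in 2 (20 regions) or 3 libraries (24 regions). WT replicate 1 alone called 16 Igk regions (9.94%), against 4.6% of regions on all chromosomes. WT replicate 2 alone called 10 (6.21% against 6.06%), and the knockout replicates 16 each (9.94% against 10.9% and 9.13%). The excess in WT replicate 1 concerns 1 library, was singled out after its values were seen and was not tested. Within each list, peaks in regions of all libraries were wider than the others, with medians of 526.5 against 318, 545.5 against 336, 565 against 296 and 755 against 498 bp. A wider peak more easily touches a peak of another list, so this contrast is in part given by how shared regions were defined. Regions of all libraries also ranked higher than those of a single library, with a median percentile of fold of 60.8 against 21.1. The percentile of a peak is the share of peaks in its own list with a fold at or below its own. Neighbouring shared regions lay a median of 46.4 kb apart, and at most 185 kb. The longest stretches without a shared region were 68201794 to 68387239 (185 kb), 70009527 to 70193195 (184 kb) and 67808639 to 67983276 (175 kb). Counting every region, the longest empty stretch was 79.0 kb, from 69865237 to 69944220.

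Shared sites were made of touching or overlapping peaks, so similar positions were in part given by their definition. At the 57 shared regions with exactly 1 peak in each library, starts differed by a median of 177 bp between the libraries and ends by 283 bp. The largest difference of starts was 766 bp. At these regions the median width was 530 and 546 bp in WT, 570 bp in the first and 748 bp in the second knockout library. Knockout minus WT was 121 bp, with a WT mean of 538 ± 11.3 and a knockout mean of 659 ± 126 bp (SD, 2 libraries each), with an exact permutation p of 0.33, which 2 against 2 libraries cannot go below. The second knockout library was the widest at 34 of these regions and had the lowest fold at 45. The order of folds over the 59 shared regions was related between lists, with Spearman's rho from 0.519 between the knockout libraries to 0.750 between the WT libraries. This rho is across sites that share a library and is given as a description.

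The V array was occupied along its whole length. Its density was 28.3 and 27.4 peaks per Mb with 53BP1 and 30.8 and 28.9 without it. From the start of the array, the mean over the libraries was 25.5, 24.5, 29.5, 28.0, 34.5 and 34.5 peaks per Mb in the 6 bins of 0.5 Mb. It was 22.0 in the last V bin of 0.25 Mb, which lies next to the J segments, and 26.7 there without WT replicate 1. That bin held 2 and 5 peaks with 53BP1 and 7 and 8 without it, and its first WT value, 8 peaks per Mb, was close to the 7.65 of the rest of chromosome 6 in that library. The share of regions called in every library also varied along the array. It was highest from 68.4 to 68.9 Mb, where 12 of 19 regions (63.2%) were shared. The lowest share, 5 of 27 regions (18.5%), was found in the next bin, from 68.9 to 69.4 Mb, which held 13 regions of a single library. In that bin 0 to 1 peak per library reached a −log10 q of 5, against 5 to 6 from 69.4 to 69.9 Mb.

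**Figure D2:**
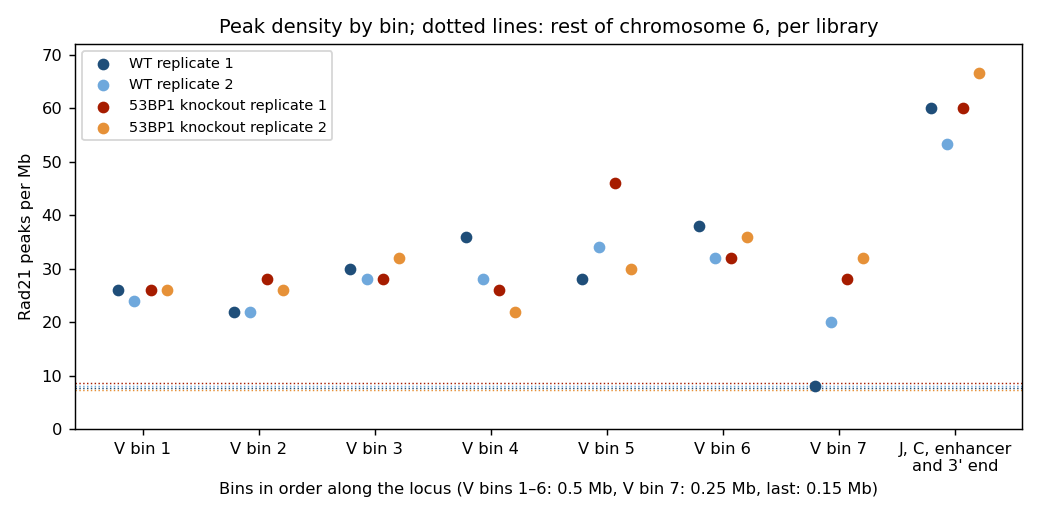
Rad21 peaks per Mb (vertical axis) in the 8 bins in order along the locus, with 1 point per library. Dotted lines give each library's density on the rest of chromosome 6, 7.43 to 8.64 peaks per Mb. Each point lies above the line of its own library in every bin, by the least for WT replicate 1 in the last V bin, with 8 peaks per Mb, and the last bin is the densest in each library.

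Between 69682711 and 69865237 lay the 3 V sites of highest fold in both WT libraries and in knockout replicate 1, but not in knockout replicate 2. The region chr6:69682711-69683459 had folds of 7.36 and 6.73 with 53BP1 and 7.72 and 4.55 without it. In the same order the folds of chr6:69708366-69709544 were 6.02, 5.77, 5.60 and 4.24. Those of chr6:69778511-69779727 were 7.05, 7.23, 7.81 and 4.13, and those of chr6:69864119-69865237 were 7.36, 7.23, 8.08 and 4.29. In knockout replicate 2 the highest V fold, 4.71, was at chr6:68387239-68387916 instead. The −log10 q of chr6:69778511-69779727 was 9.48 to 11.5 in the first 3 lists and 4.99 in the last. Each of the other 3 regions of this group had a −log10 q of at least 5 in every library, from 6.90 to 14.7. In the first 3 lists chr6:69682711-69683459 and chr6:69864119-69865237 were at percentiles 99.2 to 99.7 of fold, and in the second knockout list at 89.1 and 81.5. Elsewhere in the V array 3 regions had a −log10 q of at least 5 in every library. At chr6:67460490-67461555 the −log10 q was 6.70 and 6.49 with 53BP1 and 12.3 and 8.76 without it. At chr6:68151395-68152313 it was 10.2, 9.48, 8.71 and 10.7. At chr6:68887922-68889047 it was 9.87, 12.5, 7.64 and 6.52.

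The bin from 68.4 to 68.9 Mb also held chr6:68547877-68548748, with folds of 4.90, 4.99, 5.08 and 4.46. Its lowest percentile of fold over the 4 lists, 80.1, was the highest such value in that bin. In the V bins not yet described the shared region chosen in this way had a lowest percentile of 54.1 to 62.3. In the bin from 68.9 to 69.4 Mb this region, chr6:69254504-69255130, had folds of 4.27, 4.62, 4.34 and 3.73. That of the V bin starting at 69.9 Mb, chr6:70008764-70009527, had 5.04, 4.80, 4.46 and 4.18. That of the last V bin, chr6:70417916-70419360, had 4.20 and 4.67 with 53BP1 and 5.90 and 4.40 without it. It was also among the 5 widest shared regions, with 1445 bp. The widest of all shared regions, chr6:70557044-70558989 with 1946 bp, was weak, with folds of 3.46, 3.57, 3.89 and 3.19. Its width in single libraries ran from 494 bp in WT replicate 1 to 1656 bp in knockout replicate 2. Another wide V region, chr6:68192285-68193773 with 1489 bp, had folds of 5.43 and 4.55 with 53BP1 and 3.69 and 3.05 without it.

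The J, C, enhancer and 3′ end was the densest part of the locus in each library. It held 9 and 8 peaks with 53BP1 and 9 and 10 without it, or 60.0, 53.3, 60.0 and 66.7 peaks per Mb. This was 2.08 ± 0.17 times the density of the V array (mean ± SD, n = 4 libraries). Here 7 of 12 regions (58.3%) were called in all 4 libraries, against 52 of 149 (34.9%) in the V array as a whole and 63.2% in its bin from 68.4 to 68.9 Mb. A −log10 q of 5 or more was reached by 4, 4, 4 and 3 peaks here, against 15, 15, 14 and 14 in the much longer V array. Knockout and WT counts overlapped here, with a difference of 1 peak (exact permutation p = 0.667).

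The 2 shared regions nearest to the V array lay 4.20 kb apart, the closest pair of shared regions in the locus. The first, chr6:70659162-70660023, had folds of 5.17 and 5.25 with 53BP1 and 5.47 and 3.53 without it. Its −log10 q was 15.4, 15.9, 15.5 and 11.5, the highest of any Igk peak in each library and at percentiles 99.2 to 99.6 of the lists. The second, chr6:70664225-70664711, had low folds of 3.50, 3.19, 3.25 and 3.14, with a −log10 q of 4.89, 3.72, 3.58 and 6.74. Rank by fold and rank by significance thus came apart at the second region. There the percentile of −log10 q exceeded that of fold by 55.4, 52.7, 51.9 and 81.1 points, in each library. A gap of at least 50 points in every library was found at 1 of the 59 shared Igk regions and at 0.442% of shared regions on all chromosomes. At the first region the gap was 13.2, 9.98 and 11.9 points in the first 3 lists and 59.1 in the second knockout list. In that last list a V region had a gap of 60.4 points. The limit of 50 points was chosen after these values were seen. The peak caller's local background at these sites is not in the lists, so its part in the gap was not tested.

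**Figure D3:**
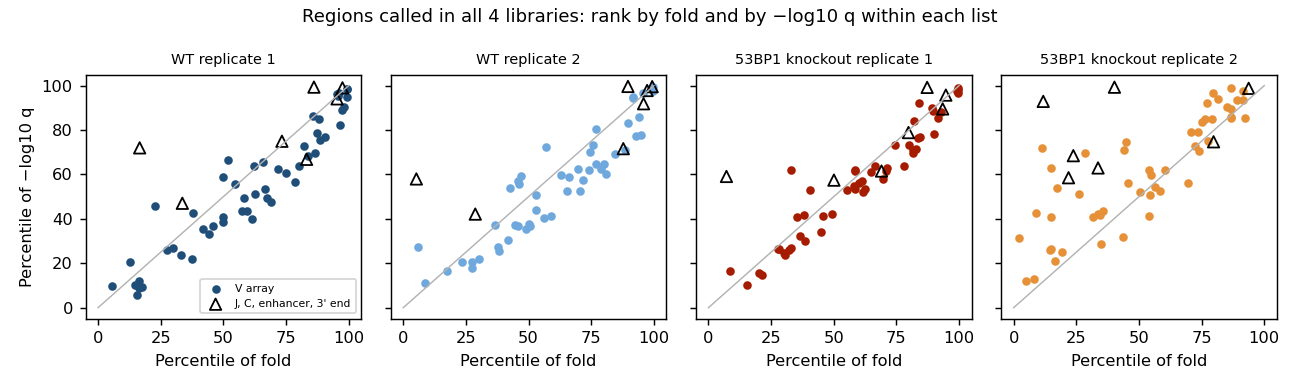
Within-list percentile of fold (horizontal axis) against that of −log10 q (vertical axis) at the 59 regions called in every library, with 1 panel per library. Filled points are V array regions, open triangles the 7 regions of the J, C, enhancer and 3′ end, and the line marks equal percentiles. The triangle far above the line at the left of each panel is chr6:70664225-70664711, and points scatter more widely around the line in knockout replicate 2.

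Further along, shared and single calls alternated. The region chr6:70675788-70676676 was called in replicate 2 of both genotypes, with folds of 4.04 in WT and 3.73 in the knockout. The next regions, chr6:70685176-70685931 and chr6:70693811-70694096, were called in knockout replicate 2 alone, with folds of 4.00 and 4.06. The shared region chr6:70701649-70703371, 1723 bp wide, had folds of 5.90 and 6.03 with 53BP1 and 5.97 and 3.32 without it. In that last library its peak was the widest, with 1721 bp against 570 to 1219 bp, and its percentile of fold was 23.8 against 93.4 to 97.3. At chr6:70718295-70719202 folds were 6.27, 6.79, 6.12 and 4.82, and the −log10 q was 14.0 and 15.1 with 53BP1 and 10.5 and 10.4 without it. It was the only region of the locus at percentile 90 or more of fold in every list, from 93.8 to 99.3.

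The 3′ part of this stretch held 3 more shared regions. At chr6:70747639-70748436 folds were 5.02 and 5.15 with 53BP1 and 4.67 and 4.24 without it. At chr6:70754579-70756313 they were 3.80, 3.66, 5.07 and 3.29, and the region consisted of 2 peaks in replicate 1 of each genotype and of 1 peak in the other lists. At chr6:70761759-70762891 they were 4.66, 5.80, 4.15 and 3.44. Peaks at chr6:70742064-70742267 and chr6:70794276-70794488 were called in knockout replicate 1 and WT replicate 1 alone. No test was run on single regions, since 2 against 2 libraries cannot give an exact permutation p below 0.33, and folds belong to their own lists.

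**Figure D4:**
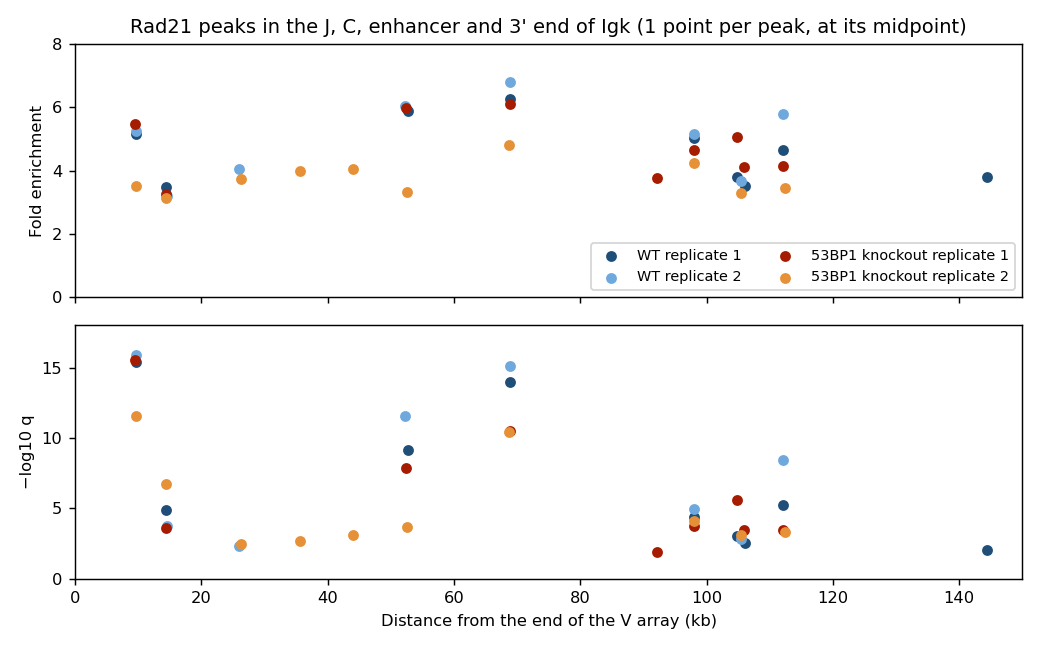
Fold enrichment (upper panel) and −log10 q (lower panel) of each Rad21 peak in the J, C, enhancer and 3′ end against the distance of its midpoint from the end of the V array in kb, coloured by library. The site nearest to the V array has a −log10 q of 11.5 to 15.9 with folds of 3.53 to 5.47, and the site near 69 kb has folds of 4.82 to 6.79.

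The genotypes were then compared over the whole window, to see whether cohesin occupied Igk differently without 53BP1. Knockout libraries held 106.5 ± 3.54 peaks and WT libraries 99.0 ± 2.83 (mean ± SD over 2 libraries). Knockout exceeded WT by 7.5 peaks or 1.08-fold, and the groups did not overlap. The exact permutation test over libraries gave p = 0.33, again its lowest value. Relative to the length of each list there was no such difference, since Igk held 0.44% ± 0.027 of WT and 0.445% ± 0.016 of knockout peaks (SD, n = 2 each). The count reversed its sign under stricter lists: it was −1.5 with lists of equal length or at a −log10 q of at least 5, and −14 at a fold of at least 4. That last value rests on knockout replicate 2, which held 28 peaks of this fold against 60, 52 and 56 in the other lists in order, and without it the difference was 0. Peaks covered 49.7 and 52.8 kb with 53BP1 and 54.3 and 72.8 kb without it. The difference of 12.3 kb (exact permutation p = 0.33) came mostly from 1 library and was 3.00 kb without knockout replicate 2. Median width differed by 60.5 bp with overlapping groups (exact permutation p = 1), and by −68.5 bp without that library. Peak names share a prefix within each replicate number. Within these, knockout minus WT was 8 and 7 peaks, 4.56 and 20.0 kb, and −40 and 161 bp for replicates 1 and 2.

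Igk peaks ranked lower within the knockout lists by fold, and not by significance. The median percentile of fold was 55.6 and 49.2 with 53BP1 and 44.8 and 40.6 without it. The difference was −9.76 percentile points, with means of 52.4 ± 4.51 and 42.7 ± 2.94 (SD, n = 2 each, exact permutation p = 0.33). It was −10.9 in replicate 1 and −8.64 in replicate 2. On the rest of chromosome 6 the medians were 51.8 and 50.5 with 53BP1 and 52.3 and 51.3 without it. In an approximate Igh window they were 74.0 and 69.3 with 53BP1 and 64.4 and 53.5 without it. Igh thus showed such a separation too. In an approximate Tcra and Tcrd window the groups overlapped, with 47.9 and 48.4 with 53BP1 and 52.4 and 43.4 without it. These comparisons between loci were not tested. At the regions called in every library the Igk difference was −6.98, and both knockout medians, 61.8 and 54.1, lay below both WT medians, 64.2 and 65.5. Ranked by −log10 p instead, the medians were 45.1 and 42.2 with 53BP1 and 41.8 and 46.5 without it, a difference of 0.526 points with overlapping groups. In Igk the separation by fold is therefore not found with this measure. At single shared regions, both knockout percentiles of fold lay below both WT percentiles at 19 of 59 (32.2%) and above them at 8 (13.6%), against 16.1% and 18.7% of shared regions on all chromosomes. By percentile of −log10 q these numbers were 14 (23.7%) below and 17 (28.8%) above, against 15.3% and 19.9%. The difference from these shares was not tested.

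**Figure D5:**
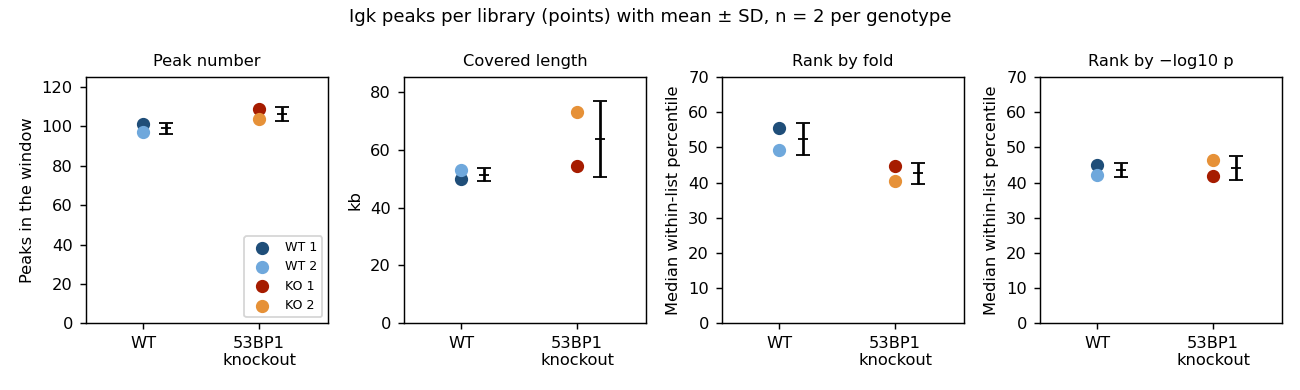
Peak number, covered length in kb, and the median within-list percentile of Igk peaks by fold and by −log10 p (vertical axes), for WT and 53BP1 knockout libraries. Points are libraries, and bars give the mean ± SD (n = 2). Genotypes do not overlap in the first 3 panels and overlap in the last, and knockout replicate 2 stands apart in covered length with 72.8 kb.

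Sites that followed genotype were few and weak. In Igk 7 regions (4.35%) were called in both knockout and in neither WT library, against 3.05% of all regions, and 4 (2.48%) in both WT and in neither knockout library, against 2.19%. These shares are near the background and were not tested. The 7 knockout-only regions had folds of 3.18 to 3.93 and a −log10 q of 1.12 to 2.42. They were chr6:67789676-67790026, chr6:67846477-67847013, chr6:67904332-67904926, chr6:69494353-69494655, chr6:70304804-70305229, chr6:70468031-70468900 and chr6:70522291-70522935. The first 3 lay in the first pair of V bins, and the last 2 in the V bin next to the J segments. The 4 WT-only regions had folds of 3.33 to 4.55 and a −log10 q of 1.56 to 3.22. They were chr6:68940560-68941417, chr6:69147448-69147787, chr6:69458031-69458517 and chr6:70096956-70097361, from 68.9 Mb onwards. All 11 lay in the V array and 0 in the J, C, enhancer and 3′ end. No knockout-only region had a fold of 4 in both libraries, and 1 WT-only region did, chr6:69458031-69458517, with folds of 4.03 and 4.15. Folds ran lower throughout the list of knockout replicate 2, with a median of 3.67 against 4.06 to 4.15 in the other lists. A fold of 4 was thus a stricter cut in that list, and it does not compare the strength of knockout-only and WT-only regions.

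By position, the genotypes did not overlap in 3 of the 7 V bins, and these did not share a direction. Knockout libraries held more peaks from 67.9 to 68.4 Mb, with 14 and 13 against 11 and 11 in WT, and in the last V bin, with 7 and 8 against 2 and 5. They held fewer from 68.9 to 69.4 Mb, with 13 and 11 against 18 and 14. For each, the exact permutation test gave its lowest value, p = 0.33. On all chromosomes 18.1% of windows of 0.5 Mb with a peak were separated in this way, 13.1% with more and 5.03% with fewer peaks in knockout libraries. These windows were not matched to the V bins in peak number, and the last V bin is only 0.25 Mb long. Whether the 3 of 7 V bins depart from that share was not tested. With bins of 0.25 Mb 2 of 13 V bins were separated, and 2 of 7 at a −log10 q of 5 or a fold of 4. In the last V bin the difference lay at weak sites. The 2 knockout-only regions there had folds of 3.34 to 3.72. A further 2 regions, chr6:70443434-70444148 and chr6:70612925-70613808, were called in every library but WT replicate 1, with folds of 3.11 to 3.84. Another 2 were called in knockout replicate 2 alone, with folds of 3.54 and 2.97. The shared region chr6:70557044-70558989 counted as 2 peaks in WT replicate 2 and knockout replicate 1, and as 1 in the other lists. From 69.4 to 69.9 Mb knockout replicate 1 had 23 peaks against 14 to 17 in the other libraries.

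Libraries of 1 genotype were not clearly more alike in Igk than libraries of different genotypes. The Jaccard index, the base pairs 2 lists share inside the window over those covered by either, was 0.454 between the WT libraries and 0.383 between the knockout libraries. The 4 pairs across genotypes gave 0.380 to 0.442. The mean of the same-genotype pairs was higher by 0.008, which is under the SD of the other pairs, 0.027. Over all chromosomes the means were 0.451 and 0.443, so Igk, with 0.419 and 0.411, was somewhat less alike between lists. The other large receptor loci, in approximate mm9 windows, held 35.5 to 39.3 peaks per Mb in Igh and 30.5 to 36.0 in Tcra and Tcrd. Of their regions 56.4% and 45.7% were called in every library. In Igh the median percentile of fold was 74.0, 69.3, 64.4 and 53.5 in the order used above, higher than in Igk in each of the 4 libraries, and this difference was not tested.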

How the data were processed

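Rad21 chromatin immunoprecipitation with sequencing was analysed in 2 WT and 2 53BP1 knockout libraries, grouped by sample title. Cells were fixed with 1% formaldehyde and libraries made by tagmentation on beads, per the labels' protocols. MACS2 2.2.7.1 and Bowtie2 2.4.4 are among the tools that the submitters' processing notes name, with the build mm9. Parameters, and whether a control library was used, were not given in the sources used here. The authors deposited 1 peak list per library, so replicates were not pooled. Fold enrichment, as deposited, is the ratio of a peak's signal to its background. The deposited −log10 p and −log10 q are those of the authors' caller, with a lowest −log10 q of 1.01 to 1.02, and the deposited score is 10 times the latter. These values compare peaks within a list only. Depth is unknown, and it changes how many weak peaks a list holds.

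Peaks on chromosomes 1 to 19 and X were read with pandas 2.3.3. Touching peaks were merged, and a region counted as called in a library with an overlap of at least 1 bp. Bins used peak midpoints. The genotypes' means were set against each other by an exact permutation test, two-sided, over 6 arrangements of libraries, and Igk with the rest of chromosome 6 by an exact sign-flip test over libraries. Merging, class counts and both tests were tested on simulated peak lists. Named regions were the strongest shared region of each bin, all regions that followed genotype, all regions of the J, C, enhancer and 3′ end, the 5 widest shared regions, the longest and shortest gaps and those at the borders. Regions with a −log10 q of at least 5 in every library, 2 regions missing from 1 WT library and 2 further strong V regions were added after their values were seen. The members and lists were chosen with earlier results of these data known. Alternatives were stricter thresholds, equal list lengths, other merging, overlap and bin sizes, leaving out each library and the replicate block. Sequences are not printed, since no mm9 genome was used here.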

Additional observations from a re-analysis of the deposited data

How the results depend on the processing

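Of 63 values recomputed under alternatives other than leaving out a library, 40 stayed within the spread between libraries, or within 1.5 times for a count, and 23 moved further. Among peaks that reached a −log10 q of 5, the knockout differed from WT by −1.5 peaks, 0.285 kb, −26.8 percentile points and −0.5 peaks in the J, C, enhancer and 3′ end. The density ratio was 3.00, the Jaccard difference 0.039, and there were 8 shared, 1 knockout-only and 2 WT-only regions. Among peaks that reached a fold of 4, these differences were −14 peaks, −4.53 kb, and 0 peaks in the J, C, enhancer and 3′ end, with a density ratio of 3.55 and 20 shared, 0 knockout-only and 8 WT-only regions. The first pair rests on knockout replicate 2, with 28 peaks of that fold against 52 to 60 in the others, and without it the differences were 0 peaks and 0.0955 kb. The same short list limits how many regions can be shared or knockout-only at this fold. Shares over all regions are not given for these alternatives, so their region counts are not read as genotype results. With lists of equal length the differences were −1.5 peaks and −5.91 percentile points, and there were 3 knockout-only regions. With at least 50% of a region covered, 27 regions were shared. By −log10 p the percentile difference was 0.526. This alternative, the restriction to shared regions and the joint one of a fold of 4 without knockout replicate 2 were chosen after seeing the data. Thresholds leave smaller lists, and the cause of these shifts was not tested.

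Leaving out each library in turn gave 13 to 24 knockout-only and 8 to 20 WT-only regions, since fewer libraries must then hold or lack a peak. The Jaccard difference ran from −0.039 without WT replicate 1 to 0.064 without knockout replicate 1, and 4 to 5 V bins were separated, 5 of them without WT replicate 2. Peak number differed by 5 to 10, covered length by 3.00 to 21.5 kb, the percentile by −12.9 to −6.57 points and the J, C, enhancer and 3′ end by 0.5 to 1.5 peaks. In the replicate block, the average of the differences within replicate numbers was 7.5 peaks, which with 1 library per genotype and number must equal the difference of means. It changed no call. The numbers were not taken to pair libraries: over 4075 windows, the WT and the knockout differences between replicates correlated at 0.026. Unknown depth limits all counts of weak peaks.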
